A study of Mus musculus with 18 samples.

Results

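Syndecan-3+ cells sorted from tibialis anterior muscle of Sdc4-/- mice 48 h post-injury were compared with syndecan-3+ cells sorted from uninjured tibialis anterior muscle of Sdc4-/- mice. The comparison holds the 6 arrays whose titles give this genotype and these times, 3 per group, out of 18 arrays in the series. Sdc4-/- mice carried a homozygous deletion of syndecan-4 on a C57Bl/6 background, and injury was an injection of 1.2% barium chloride. The series also holds Sdc4-/- cells 12 h post-injury and wild type (C57Bl/6 x DBA2) cells 48 h and 12 h post-injury and uninjured, 3 arrays each. A single uninjured wild type array was left out of the fit. All mice were female, the labels give an age of 3 to 6 months and the methods the lower end of that range, and the genotypes differed in strain as well as in syndecan-4. RNA of the sorted cells went through repeated T7 amplification before 5000 cell equivalents were hybridized to an Affymetrix mouse genome array. Nothing in the labels says how many mice stood behind an array, so p-values measure the spread between arrays.

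Satellite cells are the stem cells of skeletal muscle. They lie under the basal lamina in a quiescent state marked by Pax7, and after injury they express Myod1, enter the cell cycle and rebuild fibres. Syndecan-4 and syndecan-3 are transmembrane heparan sulfate proteoglycans of the satellite cell surface. In the days after injury, muscle also fills with monocytes that become macrophages, which engulf dead fibres and release signals to the stem cells. The comparison asks which genes changed by 48 h in cells that lack syndecan-4.

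The targeted gene and the labelled cell type were checked first. Of 2 Sdc4 probe sets, one read 2.54, 2.6 and 2.52 (log2 GCRMA) in Sdc4-/- cells at 48 h and 2.5, 2.49 and 2.52 in uninjured Sdc4-/- cells, against a mean of 6.56 ± 1.02 (SD, n = 3) in wild type cells at 48 h. The other Sdc4 probe set read 4.15, 4.09 and 6.53 at 48 h and 5.15, 4.07 and 3.39 in uninjured Sdc4-/- cells, with groups that overlapped, and 7.66 ± 0.68 (SD, n = 3) in wild type cells at 48 h. Log2 values of about 2 to 3.5 are the background of these arrays, which come with no detection calls. Sdc3, the gene of the antigen used for the sort, read 5.94, 7.09 and 7.33 at 48 h and 6.06, 5.92 and 6.71 in uninjured cells, with groups that overlapped.

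The transcription factors that define satellite cells were at the background of the arrays in both groups. Pax7, the transcription factor of quiescent satellite cells, read 2.42, 2.4 and 2.39 at 48 h and 2.41, 2.38 and 2.62 in uninjured cells. Myod1, the myogenic commitment factor, read 2.34, 2.33 and 2.31 at 48 h and 3.05, 2.52 and 2.3 in uninjured cells, and Myf5 2.81, 2.8 and 2.61 at 48 h and 2.82, 2.82 and 2.8 in uninjured cells. None of these genes stood above background on any of the 6 arrays. Myog, Cdh15, Itga7, Calcr and Chodl, further markers of myogenic cells, had group means between 2.56 and 3.25. Of 26 satellite cell and quiescence markers, 0 passed the test in either direction, at limma's adjusted p under 0.05, 12 had means under 3.5 in both groups, and 11 had a mean above 5 in either group. Met, the receptor for hepatocyte growth factor on satellite cells, was among the 11, at 7.2, 6.38 and 7.44 at 48 h and 5, 3.52 and 4.64 in uninjured cells without overlap, a change of 2.62 ± 0.881 (SE, adjusted p = 0.141). A further probe set of Met read 2.20 to 2.23 on the 6 arrays. At an unadjusted p under 0.05, which 16.6% of all genes and 33% of the genes with a mean above 5 reached, 2 of the 26 were higher and 5 lower. In uninjured wild type cells Pax7 averaged 4.87 ± 0.4 (SD, n = 2).

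Markers of the macrophage lineage were among the brighter signals in the same cells. Csf1r, the receptor for the macrophage growth factor, read 13.09, 12.95 and 12.58 at 48 h and 14.18, 14.24 and 14.03 in uninjured cells, and its change of -1.28 did not pass (adjusted p = 0.431). The groups did not overlap, and with only these 6 arrays fitted it passed (adjusted p = 0.0213). Lyz2, the lysozyme of myeloid cells, read 12.72, 13.23 and 12.57 at 48 h and 12.6, 12.57 and 12.08 in uninjured cells, and Ptprc, the pan-leukocyte antigen CD45, 11.76, 11.36 and 11 at 48 h and 10.51, 10.86 and 10.55 in uninjured cells. Mrc1, Cd163, Adgre1 and Cd68 all had means of 8.52 or more in both groups. The summed level of the 29 measured monocyte and macrophage markers was 16.53 to 16.95 (log2) at 48 h and 16.58 to 16.90 in uninjured cells, and these ranges overlapped. Since Pax7, Myf5 and Myod1 were at background while these markers were bright, the values did not bear out the satellite cell label. The populations are therefore called syndecan-3-sorted Sdc4-/- cells here. Myod1 was at background in wild type cells as well, and so was Pax7 in wild type cells at 48 h. A background reading of Myod1, or of Pax7 at 48 h, thus cannot show that satellite cells were absent. Changes below could be fewer cells of a type or less RNA per cell, which cannot be told apart in pooled RNA.

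**Figure D1:**
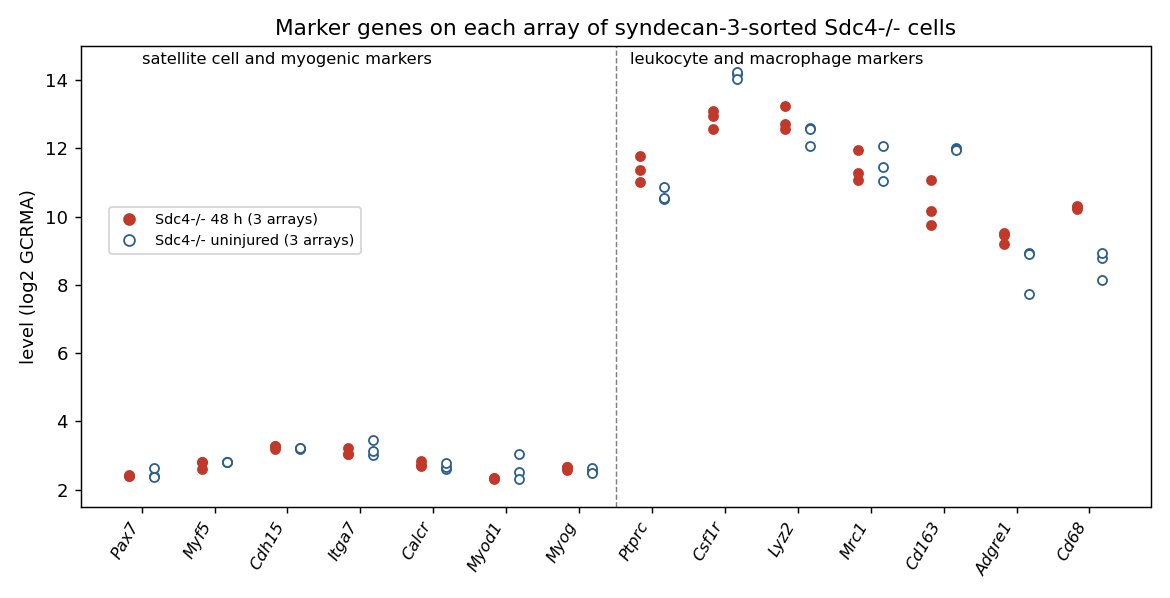
Level (log2 GCRMA, vertical axis) of 14 marker genes on each Sdc4-/- array, filled points for 48 h and open points for uninjured cells. The 7 satellite cell and myogenic markers on the left lie at background in both groups, while the 7 leukocyte and macrophage markers on the right read 7.72 or more on every array. The satellite cell markers Sdc3 and Met are not drawn and read higher by their brightest probe sets. Their means were 6.79 and 7.01 at 48 h and 6.23 and 4.39 in uninjured cells.

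The arrays of both groups were alike in most measures of quality. Between 7294 and 7723 probe sets read above 5 at 48 h, against 7137 to 7864 in uninjured cells, and the hybridization controls averaged 8.74 to 10.43 at 48 h and 9.72 to 10.30 in uninjured cells. Pearson correlations between arrays were 0.963 to 0.968 within the 48 h group, 0.936 to 0.953 within the uninjured group and 0.876 to 0.910 across groups, over all probe sets. The signal of the 3′ probe set of Actb minus that of its 5′ probe set was higher at 48 h, at 6.14 to 6.66 against 5.30 to 5.36 in uninjured cells, and for Gapdh it was 2.28 to 3.00 at 48 h against 0.76 to 1.87 in uninjured cells. The part of this shift in RNA quality in the changes below was not tested. On other arrays of the fit, the 3 of wild type cells at 12 h, only 2832 to 3982 probe sets read above 5.

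Of 45101 probe sets 2026 (4.49%) were called at 48 h against uninjured, 983 higher (2.18%) and 1043 lower (2.31%). Counted as genes, each by its probe set with the highest mean, 953 of 18194 (5.24%) were called: 482 (2.65%) rose and 471 (2.59%) fell, and these shares are the background over all genes for each count of a list's members below. Among the 5485 genes with a mean above 5 in either group the shares were larger, 6.86% higher and 5.51% lower, and those shares are the nearer background for lists of mostly expressed genes. The genes that rose had a median change of 1.87 on the log2 scale and those that fell one of -2.05. The largest falls exceeded the largest rises, with 53 genes lower and 16 higher by at least 16-fold. Over all genes the median change was 0.023, and over the genes with a mean above 5 it was 0.31. Without uninjured replicate 3, 651 probe sets were called higher and 1285 lower. With each array shifted by its 75th percentile, 1493 were higher and 886 lower, and that shift moved the median of all probe sets to 0.15. Quantile normalization of the arrays gave 515 higher and 689 lower.

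Ppbp and Lhfpl2 had the largest rises. Ppbp, the chemokine CXCL7 that draws neutrophils, read 7.93, 8.38 and 9.87 at 48 h and 3.4, 3.09 and 3.34 in uninjured cells. No 48 h array came within 4 log2 units of an uninjured one. The change was 5.45 ± 0.906 (SE, adjusted p = 0.00426), a call that ended after quantile normalization. Lhfpl2, of a family of tetraspan membrane proteins, read 10.33, 10.81 and 10.45 at 48 h and 4.75, 6.28 and 4.52 in uninjured cells, a change of 5.34 ± 0.746 (SE, adjusted p = 0.0014). Gpnmb, a glycoprotein of macrophages with engulfed lipid and debris, read 9.33, 9.18 and 8.41 at 48 h and 4.47, 3.18 and 4.49 in uninjured cells, a change of 4.93 ± 0.322 (SE, adjusted p = 5.88e-06). Il10, an anti-inflammatory cytokine, read 8.9, 9.41 and 9.93 at 48 h and 5.25, 5.14 and 2.92 in uninjured cells, a change of 4.98 ± 0.65 (SE, adjusted p = 0.000857). For each of the 4 genes every 48 h array lay above every uninjured array, as the rule for naming required.

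Msr1, the class A scavenger receptor, read 11.15, 10.99 and 10.85 at 48 h and 7.39, 7.03 and 6.31 in uninjured cells, and Olr1, the receptor for oxidized low-density lipoprotein, 8.47, 8.79 and 8.93 at 48 h and 5.67, 3.74 and 4.44 in uninjured cells, with changes of 4.09 ± 0.624 (SE) and 4.12 ± 0.536 (SE). Neither gene's groups overlapped. Mmp13, an interstitial collagenase, read 7.99, 8.99 and 8.21 at 48 h and 3.57, 3.26 and 3.27 in uninjured cells, a change of 5.03 ± 0.933 (SE, adjusted p = 0.00811), and Adam8, a metalloproteinase of leukocytes, rose by 4.07 ± 0.463 (SE). Arg1, the arginase of repair macrophages, read 9.38, 8.96 and 9.55 at 48 h and 7.83, 2.41 and 2.31 in uninjured cells. Uninjured replicate 1 thus stood far above the other two, and the change of 5.11 ± 1.19 (SE, adjusted p = 0.0287) lost its call on leaving out any of 5 of the 6 arrays, with adjusted p up to 0.103. The other 6 of the 15 largest rises were Atp8b4, Ms4a4c, Cd300lf, Rnf128, Ell2 and Mdm2, with changes of 4.02 to 4.73.

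Fmod and Rnase2a had the largest falls under the same rule. Fmod, fibromodulin, a collagen-binding proteoglycan of tendon and connective tissue, read 2.82, 2.81 and 2.57 at 48 h and 11.38, 12.5 and 11.46 in uninjured cells. It was at background on each 48 h array, and the change of -9.05 ± 0.508 (SE, adjusted p = 1.75e-06) had the largest size of all genes. Rnase2a, a secreted ribonuclease, read 2.83, 2.66 and 2.82 at 48 h and 12.49, 11.08 and 10.65 in uninjured cells, a change of -8.64 ± 1.37 (SE, adjusted p = 0.0032), and was likewise at background on each 48 h array. Mgl2, a galactose-binding lectin of macrophages and dendritic cells, read 2.58, 2.41 and 3.14 at 48 h and 10.51, 9.97 and 9.04 in uninjured cells, and Cd209e, a C-type lectin, 2.39, 2.38 and 2.34 at 48 h and 9.24, 9.18 and 7.98 in uninjured cells. Both also fell to background, with changes of -7.13 ± 0.765 (SE) and -6.43 ± 0.508 (SE). Retnla, a secreted product of alternatively activated macrophages, kept a signal, at 6.3, 6.25 and 5.43 at 48 h against 12.84, 12.93 and 12.38 in uninjured cells, a change of -6.72 ± 0.625 (SE, adjusted p = 7.4e-05). Pltp, the phospholipid transfer protein, did so too, at 7.79, 7.25 and 5.16 at 48 h against 13.05, 12.61 and 12.73 in uninjured cells. The other 9 of the 15 largest falls were Fcna, Tmem176a, Cp, Hpgd, Ngp, Kbtbd11, Mamdc2, Cd209g and Abca9, with changes of -5.44 to -6.57. Where a group is at background, the log2 change depends on that floor and the true ratio may be larger.

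**Figure D2:**
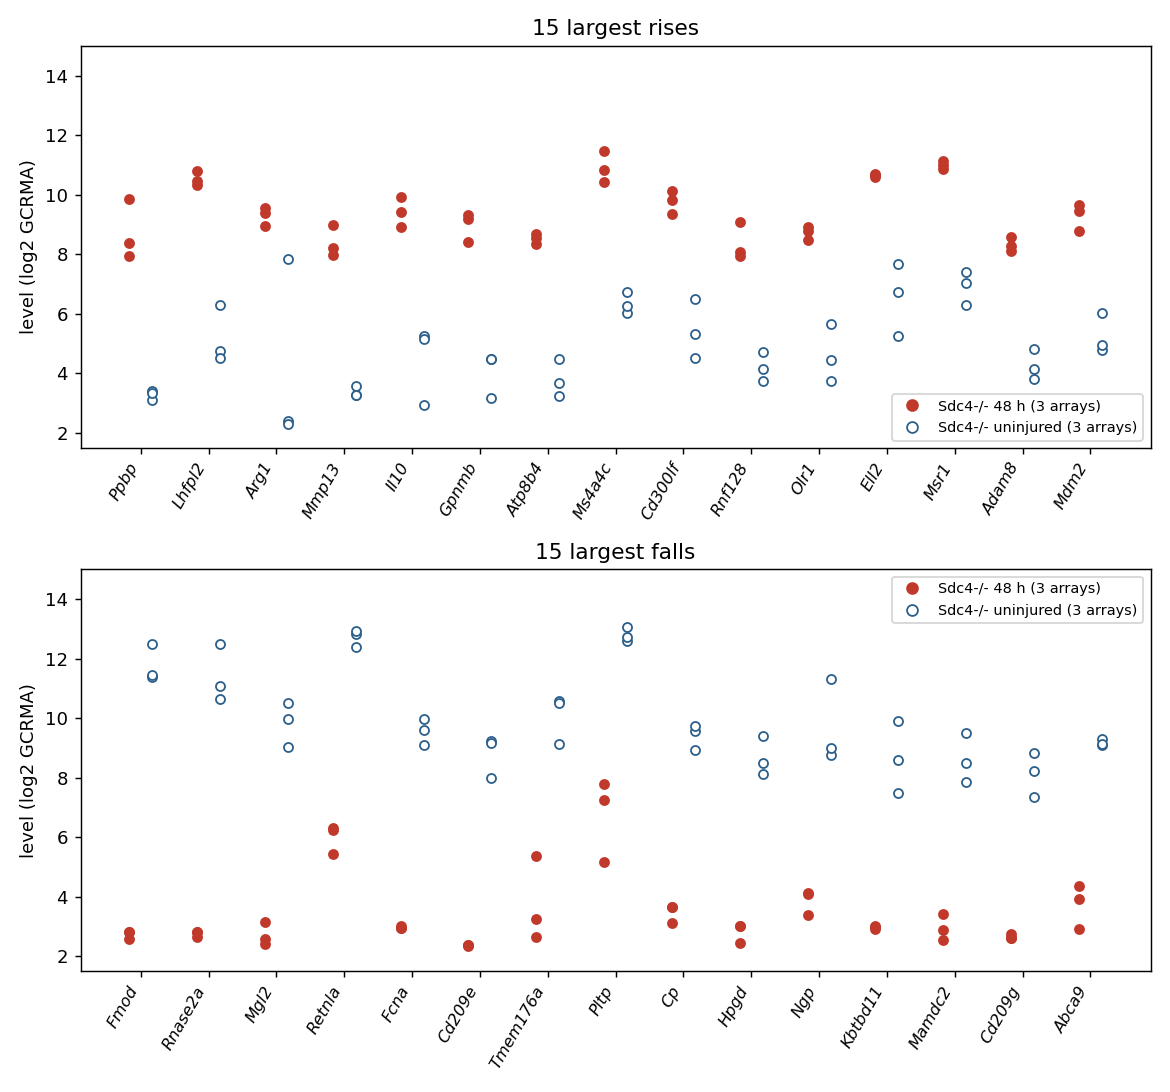
Level (log2 GCRMA, vertical axes) on each array of the 15 genes with the largest rises (upper panel) and the 15 with the largest falls (lower panel), filled points for 48 h and open points for uninjured Sdc4-/- cells. Groups do not overlap because only called genes without overlap were picked. Of the falls all but Retnla, Pltp, Tmem176a, Ngp and Abca9 read under 4 on every 48 h array.

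Of 29 measured monocyte and macrophage markers, 27 of them with a mean above 5, 5 rose (17.2%) and 0 fell. Those that rose were Gpnmb, Msr1, Arg1, Fcgr1 and Ccr2. Fcgr1, the high-affinity receptor for IgG, read 8.49, 8.66 and 8.15 at 48 h and 5.75, 5.02 and 3.35 in uninjured cells, a change of 3.72 ± 0.592 (SE, adjusted p = 0.00324). Ccr2, the chemokine receptor that brings monocytes into tissue, read 6.74, 6.18 and 6.16 at 48 h and 3.61, 4.66 and 2.97 in uninjured cells, a change of 2.61 ± 0.522 (SE, adjusted p = 0.0123). Neither gene's groups overlapped. With only these 6 arrays fitted Fcgr1 and Ccr2 had adjusted p of 0.0546 and 0.0596. In that fit 7 members were called higher and 4 lower, Csf1r among the 4, while 1153 of 45101 probe sets were called higher and 747 lower. In the 6 arrays 15 members lay higher without overlap, against 21.1% of all genes, and 7 lay lower without overlap, against 9.99%. Shares without overlap were not computed for the genes with a mean above 5.

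Genes of tissue-resident macrophages, named here after their values were seen, included 2 that fell. Timd4, a receptor for phosphatidylserine on dying cells, read 3.45, 2.48 and 3.26 at 48 h and 7.42, 8.21 and 7.84 in uninjured cells, a change of -4.76 ± 0.724 (SE, adjusted p = 0.00247). Vsig4, a complement receptor, read 2.34, 2.33 and 3.74 at 48 h and 6.58, 7.96 and 6.79 in uninjured cells, a change of -4.3 ± 0.735 (SE, adjusted p = 0.00506). Both were near background on the 48 h arrays, at 3.74 or less. Lyve1, a hyaluronan receptor, read 7.12, 7.21 and 7.43 at 48 h and 10.77, 10.53 and 10.4 in uninjured cells without overlap but did not pass (adjusted p = 0.241), and Folr2, a folate receptor, likewise (-1.56, adjusted p = 0.61). With only these 6 arrays fitted, their adjusted p were 0.00349 and 0.00737. Genes picked in this way cannot stand for resident macrophage genes as a class. The macrophage markers Mrc1, Cd163, Adgre1 and Cd68 changed by -0.09, -1.65, 0.88 and 1.64 and did not pass. Of these only Cd68 passed with only these 6 arrays fitted (adjusted p = 0.0284).

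Most MHC class II genes, which present antigen to T helper cells, and whose list also holds dendritic cell markers, were lower. Of 17 measured MHC class II and dendritic cell markers 7 fell (41.2%) and 0 rose. H2-Eb1, a class II beta chain, read 5.18, 5.09 and 5.26 at 48 h and 10.62, 10.29 and 9.53 in uninjured cells, a change of -4.98 ± 0.536 (SE, adjusted p = 0.000213). Cd74, the invariant chain that escorts class II molecules, read 4.72, 5.19 and 5.58 at 48 h and 10.74, 10.06 and 9.04 in uninjured cells, a change of -4.78 ± 0.59 (SE, adjusted p = 0.000562). The lowest uninjured array exceeded the highest 48 h array by over 3 log2 units in both.

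The other classical chains H2-Ab1 and H2-Aa fell by 4.83 and 4.4 on the log2 scale, and H2-DMa and H2-Ob, which load or edit the bound peptide, by 4.5 and 3.18. Batf3, a transcription factor of dendritic cells, fell by 2.53, a call that ended with only these 6 arrays fitted (adjusted p = 0.0986). The 6 class II genes kept their calls in every alternative that tested them, and 5 to 8 members of the list were lower over the alternatives. Ciita, the master activator of class II genes, averaged 2.43 at 48 h and 2.53 in uninjured cells and was not above background. The dendritic cell genes Itgax, Flt3, Xcr1, Zbtb46 and Ccr7 had changes between -0.59 and 0.30 and did not pass. The list's summed level was 9.80 to 10.15 at 48 h and 13.90 to 14.56 in uninjured cells.

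Chemokines rose or fell by gene. Of 24 CC and CXC chemokines 4 rose (16.7%) and 3 fell (12.5%). The monocyte attractants Ccl2 and Ccl7 read 9.28, 8.61 and 8.61 and 7.25, 7.02 and 7.89 at 48 h, against 5.69, 5.65 and 5.15 and 3.02, 4.71 and 3.15 in uninjured cells, with changes of 3.34 ± 0.651 (SE) and 3.76 ± 0.743 (SE) (adjusted p = 0.0108 and 0.0115). Their neighbour in function, Ccl12, rose by 3.06, a call that ended on leaving out any of 5 arrays (adjusted p up to 0.0875). Ccl24, the eosinophil attractant eotaxin-2, fell to 2.33, 2.45 and 2.79 at 48 h, against 7.32, 7.87 and 6.1 in uninjured cells. Cxcl12 and Cxcl13, which stromal cells make, fell by 3.26 and 3.58. Calls of Ccl7, Cxcl12 and Cxcl13 each ended on leaving out at least 1 array, with adjusted p up to 0.0516, 0.0616 and 0.107.

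Of 29 cytokines and receptors of the IL-1, IL-6, TNF and Csf families 4 rose and 1 fell. Ptgs2, the inducible cyclooxygenase, read 11.07, 11.19 and 10.85 at 48 h and 7.52, 6.87 and 6.83 in uninjured cells, a change of 3.97 ± 0.679 (SE, adjusted p = 0.00511). Il1rn, the natural antagonist of IL-1, read 9.16, 8.71 and 8.11 at 48 h and 5.6, 5.03 and 3.99 in uninjured cells, a change of 3.78 ± 0.653 (SE). The groups were apart for both genes, and both calls held in every alternative. Osm and Clcf1, ligands of the IL-6 family, rose by 2.12 and 2.01, and Il6ra, the IL-6 receptor, fell by 1.71, but each of the 3 lost its call on leaving out any of at least 4 arrays (adjusted p up to 0.0887, 0.130 and 0.157).

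Genes of the lysosome and its proton pump were higher. V-ATPase is the rotary pump that acidifies lysosomes and phagosomes, and cathepsins digest what is engulfed there. Of 29 measured lysosomal and V-ATPase genes 9 rose (31.0%) and 0 fell, and the list's median change was 0.97 against 0.023 over all genes and 0.31 over the genes with a mean above 5, which 28 of the 29 were. Atp6v1a, the catalytic subunit of the pump, read 10.45, 10.69 and 10.57 at 48 h and 8.11, 7.83 and 7.34 in uninjured cells, a change of 2.81 ± 0.224 (SE, adjusted p = 2.46e-05). Atp6v0d1, a subunit of the membrane sector, read 8.1, 8.3 and 8.23 at 48 h and 6.43, 5.75 and 5.6 in uninjured cells, a change of 2.28 ± 0.195 (SE, adjusted p = 4.19e-05). The aspartic protease Ctsd read 11.31, 11.33 and 11.21 at 48 h and 8.2, 8.27 and 7.39 in uninjured cells, a change of 3.33 ± 0.473 (SE, adjusted p = 0.00158). Spread within the 48 h group was small for these 3 genes, no group overlapped, and each call held in every alternative.

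Atp6v1b2 and Atp6v1h, of the same cytosolic sector, rose by 2.82 and 3.09. The call of Atp6v1h ended with only these 6 arrays fitted (adjusted p = 0.0668), and that of Atp6v1b2 after quantile normalization (adjusted p = 0.0722). Atp6v1c1, the cysteine protease Ctsl, Psap, the precursor of the saposins, and Atp6v0d2 rose by 3.41, 3.63, 1.49 and 1.68, calls that ended on leaving out any of 2 to 5 arrays (adjusted p up to 0.143). Over the alternatives 5 to 12 members were called higher. Genes of lysosome biogenesis are known to carry a palindromic E-box, CACGTG, often within TCACGTGA. RefSeq promoter windows (GRCm38.p6, 250 bases before to 50 after the start) were found for 22 of the list's genes and for 5 of the 9 that rose. CACGTG stood in the windows of 4 of these 5, Ctsd, Ctsl, Atp6v0d1 and Atp6v1a, in 6 of the 22 and in 8.09% of 27025 gene symbols, and TCACGTGA, which contains it, in 3 of the 5, 4 of the 22 and 1.12%. The stretches below show where the match (in capitals) lies in the risen genes where it ends upstream of the start, on the strand of the gene.
Atp6v1a, chr16:44139356-44139419 (-): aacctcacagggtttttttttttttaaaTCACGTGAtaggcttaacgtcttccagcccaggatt
Ctsd, chr7:142387891-142387954 (-): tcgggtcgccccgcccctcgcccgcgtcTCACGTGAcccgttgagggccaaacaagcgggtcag
Ctsl, chr13:64370723-64370770 (-): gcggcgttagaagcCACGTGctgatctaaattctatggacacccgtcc
TCACGTGA began 132 and 99 bases before the annotated starts of Atp6v1a and Ctsd, and in Atp6v0d1 it began 4 bases before the start and reached past it. CACGTG alone began 236 bases before the start of Ctsl and also stood 245 bases before that of Ctsd, outside the stretch shown. A match describes the sequence and was not tested for binding.

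Folding factors of the endoplasmic reticulum, where secreted and membrane proteins mature, rose in a similar share. Of 25 measured genes 9 rose (36.0%) and 0 fell, with a median change of 1.20. Pdia6, a protein disulfide isomerase, read 9.41, 9 and 9.51 at 48 h and 6.3, 6.93 and 6.63 in uninjured cells, a change of 2.69 ± 0.453 (SE, adjusted p = 0.00462). Pdia3, the isomerase that acts on glycoproteins, read 6.71, 7.18 and 7.24 at 48 h and 4.1, 5.33 and 4.37 in uninjured cells, a change of 2.44 ± 0.317 (SE, adjusted p = 0.000836). Edem1, which sends misfolded glycoproteins to degradation, read 7.5, 7.84 and 8.22 at 48 h and 5.61, 6.19 and 5.24 in uninjured cells, a change of 2.17 ± 0.243 (SE, adjusted p = 0.000268). All 3 were without overlap and kept their calls in every alternative, each of which read the same probe set. Of 2 Pdia3 probe sets 1 was called, and the other changed by -0.08. Atf6, a sensor of unfolded proteins, and Hsp90b1, the chaperone GRP94, rose by 2.5 and 1.71, and Manf, Dnajb11, Sdf2l1 and Pdia4 by 1.89, 1.64, 1.87 and 1.68, the last 4 losing their calls on leaving out any of 2 to 4 arrays (adjusted p up to 0.0977). With only these 6 arrays fitted Atf6 was not called (adjusted p = 0.0818). Hspa5, the chaperone BiP, read 13.19, 13.14 and 13.56 at 48 h and 11.9, 12.43 and 11.95 in uninjured cells without overlap but did not pass (adjusted p = 0.446).

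Many genes of this compartment carry the endoplasmic reticulum stress element, CCAAT and CCACG with 9 bases between them. On either strand it stood in the promoter windows of 7 of 22 listed genes, 2 of the 7 risen genes with a window and 0.137% of all gene symbols. Both risen genes are shown with the match in capitals, on the strand of the gene.
Hsp90b1, chr10:86705610-86705684 (-): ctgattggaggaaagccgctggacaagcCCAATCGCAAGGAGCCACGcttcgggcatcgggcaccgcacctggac
Pdia6, chr12:17266463-17266537 (+): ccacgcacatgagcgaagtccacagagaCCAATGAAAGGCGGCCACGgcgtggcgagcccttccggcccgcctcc
These matches began 212 and 98 bases before the start. The Hsp90b1 window held another match, on the opposite strand.

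Subunits of the proteasome, the protease that degrades ubiquitin-tagged proteins, rose in 9 of 34 cases (26.5%), with 0 lower and a median change of 1.33. Psmc5, an ATPase of the regulatory particle, read 4.97, 4.8 and 5.25 at 48 h and 2.96, 2.77 and 2.68 in uninjured cells, a change of 2.2 ± 0.204 (SE, adjusted p = 7.08e-05), and its call held in every alternative. Of the other 8, Psma1, Psma2, Psma3, Psmb1 and Psmb7 belong to the core and Psmc1, Psmd1 and Psmd8 to the regulatory particle, with changes of 1.09 to 2.39. Each of these 8 lost its call on leaving out any of 2 to 6 arrays (adjusted p up to 0.179), and the list held 1 called member after a further quantile normalization and 14 with only these 6 arrays fitted. In 28 of the 34 genes all 48 h arrays lay above all uninjured arrays, against 21.1% of all genes. That share was not computed for the genes with a mean above 5, which 32 of the 34 were. Psmb3, with a change of -0.89 that did not pass, was the only member with a negative change.

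Neighbouring steps of protein and RNA handling showed fewer calls. Of 25 cytosolic chaperones 3 rose, led by Cct8, a subunit of the chaperonin TRiC, at 2.21 ± 0.403 (SE, adjusted p = 0.00725). The small heat shock protein Hspb1 fell to 6.22, 6.21 and 7.2 at 48 h, against 10.08, 9.77 and 10.2 in uninjured cells, and both calls held in every alternative. Stip1 and Ahsa1, co-chaperones of HSP90, rose by 1.49 and 1.22, and the call of Ahsa1 ended on leaving out any of 4 arrays (adjusted p up to 0.0957). Of 32 core spliceosome genes 4 rose (12.5%), with Snrpa1, the U2 protein A′, at 9.92, 10 and 9.5 at 48 h and 8, 7.35 and 7.74 in uninjured cells, and with U2af1, Snrpf and Lsm6 at changes of 2.57, 1.18 and 1.85. The call of Lsm6 ended on leaving out any of 4 arrays (adjusted p up to 0.110). Of 34 cytosolic ribosomal proteins 0 passed in either direction, with a median of -0.09 and with 3 lower and 0 higher at an unadjusted p under 0.05. SR proteins and hnRNPs (34), ribosome biogenesis (25) and translation factors (25) had 1 higher and 0 lower each. With only these 6 arrays fitted, these 3 lists had 7, 5 and 5 higher and 0 lower. In that fit chaperones had 8 higher and 2 lower, the spliceosome 5 and 1, and ribosomal proteins 0 and 1. The lysosomal list had 10 higher and 1 lower there, and the endoplasmic reticulum list 12 and 1.

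**Figure D3:**
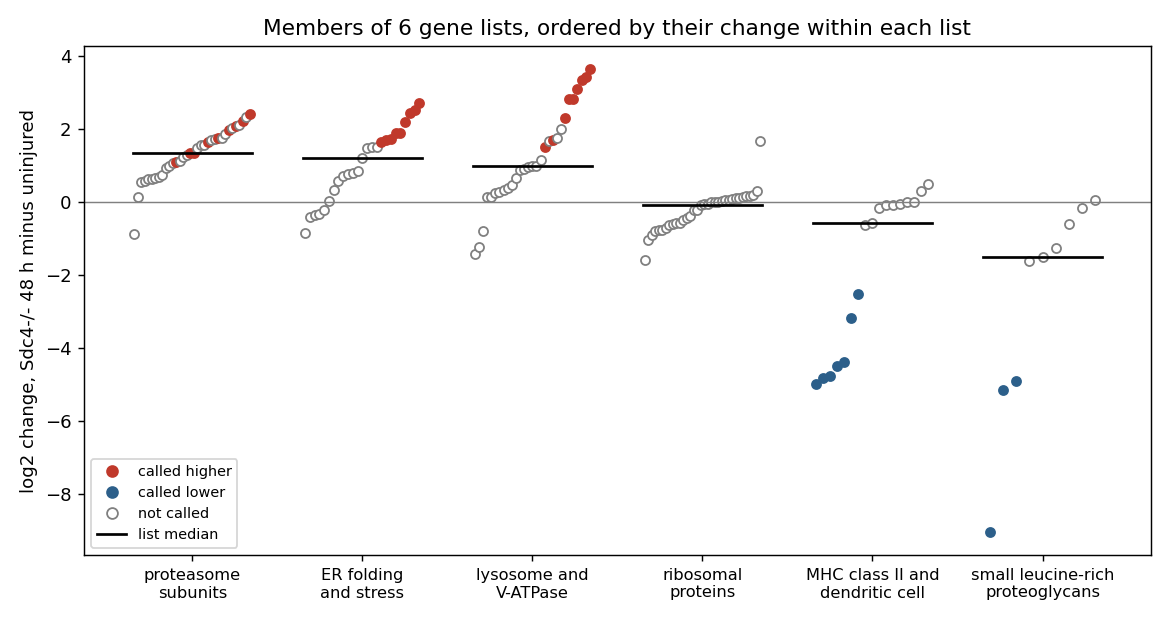
Log2 change, Sdc4-/- 48 h minus uninjured (vertical axis), of each measured member of 6 gene lists, ordered by size within a list; filled points passed limma's test at an adjusted p under 0.05 and black bars mark list medians. Proteasome, endoplasmic reticulum and lysosome members lie mostly above 0, and ribosomal proteins around 0. Called members of the MHC class II and dendritic cell list lie at -2.53 or below.

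Some genes of actin assembly, which drives cell movement and engulfment, were higher. Of 20 measured members 4 rose (20%) and 0 fell. Capg, a filament-capping protein of macrophages, read 8.01, 8.2 and 8.08 at 48 h and 6.18, 5.67 and 5.29 in uninjured cells, a change of 2.39 ± 0.421 (SE, adjusted p = 0.00605) that kept its call in every alternative. Pfn1, Wdr1 and Arpc4, which feed, take apart and branch filaments, rose by 1.58, 1.45 and 0.94, but the call of Arpc4 ended on leaving out any of 3 arrays and that of Wdr1 without 48 h replicate 2 (adjusted p up to 0.0795 and 0.0506). Of 21 integrins 0 passed (3 higher and 2 lower at an unadjusted p under 0.05), and Itgb2, the common chain of leukocyte integrins, read 9.88, 9.97 and 9.87 at 48 h and 7.61, 7.47 and 7.11 in uninjured cells (adjusted p = 0.0991).

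Several matrix genes and markers of stromal cells were lower. Besides Fmod, the small leucine-rich proteoglycans Ogn and Dcn fell, so that 3 of 9 were called (33.3%). Ogn, osteoglycin, read 4.24, 2.43 and 2.43 at 48 h and 6.27, 9.06 and 9.23 in uninjured cells, a change of -5.15 ± 1.01 (SE, adjusted p = 0.0111), and with only these 6 arrays fitted its adjusted p was 0.0725. Dcn, decorin, a marker of fibro-adipogenic progenitors, read 3.58, 4 and 2.91 at 48 h and 7.51, 8.91 and 8.77 in uninjured cells, a change of -4.9 ± 1.17 (SE, adjusted p = 0.0328). Groups of both were apart, but the call of Dcn ended on leaving out any of 5 arrays (adjusted p up to 0.118). The alpha chains Col6a1 and Col6a2 of type VI collagen fell by 2.84 and 3.29 (adjusted p up to 0.134 and 0.0713 on leaving out 1 array), the only 2 of 16 collagens called, and of 13 laminin and basement membrane genes 0 passed (2 lower at an unadjusted p under 0.05).

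Timp4, an inhibitor of matrix metalloproteinases, read 2.76, 5.14 and 3.63 at 48 h and 9.68, 7.98 and 9.62 in uninjured cells, a change of -5.25 ± 0.915 (SE, adjusted p = 0.00567). Among 19 metalloproteinases and inhibitors it was the only fall beside 3 rises, Mmp13, Adam8 and Mmp14, the membrane-bound collagenase, which rose by 1.15. With only these 6 arrays fitted Mmp14 was not called (adjusted p = 0.178). With only the 9 Sdc4-/- arrays fitted neither Mmp14 nor Mmp13 was called (adjusted p = 0.0545 for Mmp13). Kdr, the endothelial VEGF receptor, fell to 3.44, 3.44 and 3.43 at 48 h, against 5.93, 5.77 and 6.01 in uninjured cells, and was the 1 of 19 endothelial markers called. Abcc9, of pericytes, fell by 3.13, and Pdgfrb by 2.63 (adjusted p up to 0.165 on leaving out 1 array). Summed levels were 10.61 to 12.15 at 48 h and 12.20 to 13.25 in uninjured cells for endothelial markers, 8.02 to 10.18 at 48 h and 10.41 to 12.99 in uninjured cells for pericytes, and 9.23 to 10.19 at 48 h and 11.77 to 12.78 in uninjured cells for tendon markers. These 3 did not overlap between groups, whereas fibro-adipogenic markers, at 9.96 to 10.39 at 48 h and 9.81 to 11.86 in uninjured cells, did. The tendon list holds Fmod, which read 11.38, 12.5 and 11.46 in uninjured cells and made up most of that sum. The gap of the tendon list thus rests largely on Fmod, and the list's median change was -0.56. Dpt and Dpp4, of fibro-adipogenic progenitors, fell by 4.18 and 0.89, Comp, of tendon, by 2.29, and the complement genes C2 and C1ra by 3.4 and 0.79. Calls of Dpt, Comp and C1ra ended on leaving out any of 3 to 5 arrays (adjusted p up to 0.141). The part of stromal cells in the falls was not tested.

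Of 19 measured genes of wound matrix and hyaluronan 3 rose (15.8%). Cd44, the hyaluronan receptor, read 8.78, 9.06 and 9 at 48 h and 6.83, 6.45 and 5.58 in uninjured cells, a change of 2.66 ± 0.526 (SE, adjusted p = 0.0116). Plau, urokinase, read 4.81, 5.22 and 4.97 at 48 h and 3.25, 2.64 and 2.64 in uninjured cells, a change of 2.16 ± 0.34 (SE, adjusted p = 0.00304), and held its call in every alternative. Thbs1, thrombospondin-1, rose by 2.26, with adjusted p up to 0.0550 on leaving out 1 array.

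Neutrophil granule genes were lower. Of 17 neutrophil markers 3 fell and 0 rose. Ngp, neutrophilic granule protein, read 4.13, 3.39 and 4.1 at 48 h and 8.78, 9 and 11.33 in uninjured cells, Ltf, lactoferrin, 2.31, 2.3 and 2.54 at 48 h and 6.45, 6.55 and 8.95 in uninjured cells, and Camp, cathelicidin, 3.47, 3.3 and 3.36 at 48 h and 7.59, 6.08 and 9.13 in uninjured cells. Uninjured replicate 3 was the highest array for each of the 3, and the changes were -5.83 ± 0.644 (SE), -4.93 ± 0.506 (SE) and -4.22 ± 0.672 (SE). The list's summed level was 11.80 to 12.19 at 48 h and 12.40 to 13.71 in uninjured cells. Among 22 lymphocyte markers Il7r, the IL-7 receptor, rose by 2.63 and Cd2, an adhesion receptor of T cells, fell by 2.62.

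**Figure D4:**
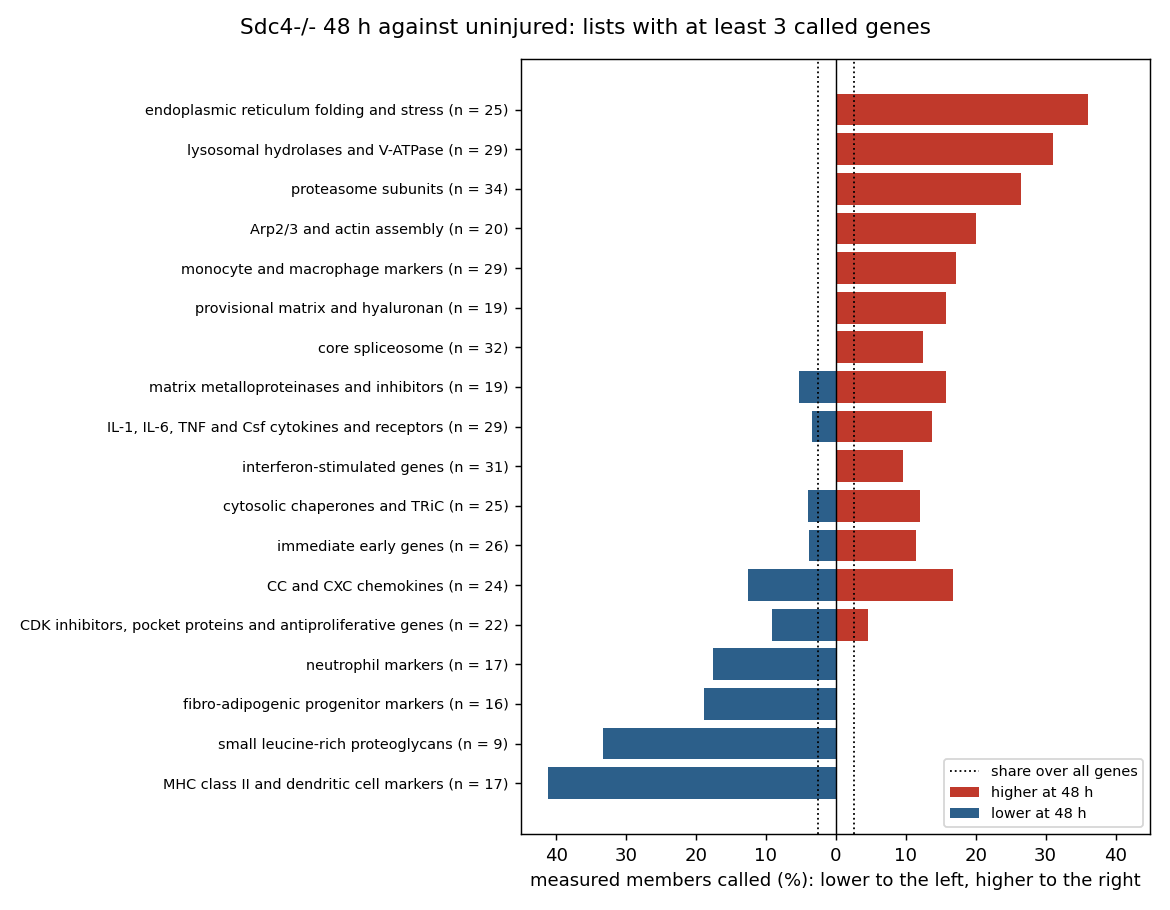
Share (%) of measured members called lower (left) and higher (right) in Sdc4-/- cells at 48 h against uninjured, for the 18 gene lists with at least 3 called members; dotted lines mark the shares over all genes, 2.65% higher and 2.59% lower. Endoplasmic reticulum (36.0%) and lysosome (31.0%) lists stand highest on the right and MHC class II (41.2%) on the left.

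Few cell cycle genes passed the test. Ccnd1, cyclin D1, which opens the G1 phase, read 5.82, 6.83 and 6.3 at 48 h and 4.17, 3.72 and 3.65 in uninjured cells, a change of 2.47 ± 0.42 (SE, adjusted p = 0.00493), and was the only call among 20 G1 genes. Cdkn1b, the inhibitor p27, fell to 3.14, 3.17 and 3.63 at 48 h, against 5.29, 4.53 and 5.09 in uninjured cells, and Cdkn1c, p57, fell by 1.57, with adjusted p up to 0.0699 on leaving out 1 of 4 arrays. Groups of Ccnd1 and Cdkn1b did not overlap, and with all 18 arrays fitted neither was called. Of 40 replication genes 2 rose, Mcm3 and Gins2, by 1.94 and 1.67, both losing their calls on leaving out any of at least 2 arrays (adjusted p up to 0.0567 and 0.0693). At an unadjusted p under 0.05, which 16.6% of all genes reached in either direction, 10 of the 40 were higher and 0 lower. Of the genes with a mean above 5, which 21 of the 40 were, 33% reached that threshold in either direction. The summed level of the replication genes was 12.12 to 12.83 at 48 h and 11.33 to 11.51 in uninjured cells, without overlap. Of 46 mitosis genes only Birc5 rose, by 0.89, at mean levels of 3.55 at 48 h and 2.66 in uninjured cells, near background. The proliferation marker Mki67 read 7.77, 7.08 and 6.65 at 48 h and 7.36, 6.09 and 6.34 in uninjured cells, with overlap. Mdm2, the ubiquitin ligase of p53, rose by 4.02 but lost its call on leaving out any of the 6 arrays (adjusted p up to 0.128).

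Among 26 immediate early genes 3 rose and 1 fell. Fosb, an AP-1 factor, read 6.78, 7.22 and 6.53 at 48 h and 3.65, 3.27 and 3.95 in uninjured cells, a change of 3.22 ± 0.528 (SE, adjusted p = 0.00391). Zfp36, tristetraprolin, which speeds the decay of cytokine mRNAs, read 9.48, 9.46 and 9.05 at 48 h and 8.08, 8.08 and 7.51 in uninjured cells, a change of 1.44 ± 0.19 (SE, adjusted p = 0.000946), and Ier3 rose by 1.61. Jund fell to 8.32, 8.29 and 7.68 at 48 h, against 10.25, 9.73 and 9.87 in uninjured cells. No group of these genes overlapped. Of 31 interferon-stimulated genes Usp18, Irf7 and Bst2 rose, by 2.8, 1.92 and 2.03, and the call of Bst2 ended on leaving out any of the 6 arrays (adjusted p up to 0.133). With only these 6 arrays fitted Usp18 was not called (adjusted p = 0.0938).

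In metabolism, Pkm, pyruvate kinase, read 7.56, 7.33 and 7.51 at 48 h and 5.52, 4.64 and 4.8 in uninjured cells, a change of 2.48 ± 0.439 (SE, adjusted p = 0.00611) that held in every alternative. Ldha, lactate dehydrogenase, rose by 1.66 and Hmox1, haem oxygenase-1, by 2.69, with adjusted p up to 0.116 and 0.113 on leaving out 1 array. Of 48 genes of oxidative phosphorylation Ndufs1 and Ndufa1 rose, by 1.86 and 1.16, with adjusted p up to 0.0608 and 0.0648 on leaving out 1 array. Lists on heparan sulfate and on adhesion held 1 call each: Hs6st1, a heparan sulfate sulfotransferase, fell by 0.77 and Lims1, the focal adhesion adaptor PINCH1, rose by 1.34, with adjusted p up to 0.164 and 0.147 on leaving out 1 array. In growth factor signalling, Id2, a target of BMP, and Igf2r, the mannose 6-phosphate receptor, rose by 2.28 and 2.36, and Tgfbr3, betaglycan, fell by 2.55 to 2.77, 3.12 and 2.71 at 48 h. No member passed in limma's test in 10 further lists, whose counts at an unadjusted p under 0.05 follow. That threshold was reached in either direction by 16.6% of all genes and 33% of the genes with a mean above 5. Among 16 FGF and HGF ligands and receptors 1 was higher and 1 lower, among 20 Notch genes 2 and 1, and among 22 Wnt genes 0 and 2. Apoptosis genes had 6 of 19 higher and 0 lower, and cholesterol and fatty acid synthesis 0 higher and 3 lower of 19. Sarcomere genes (28) and microRNA machinery (15) had 1 lower each, adipocyte markers (9) had 2 lower, Schwann cell markers (9) had 1 higher and 1 lower, and red cell genes (5) had none.

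Levels at 12 h are given as a description, since 12 h and 48 h share the uninjured arrays. The 12 h Sdc4-/- arrays stood apart in quality: 5076 to 5565 probe sets read above 5, fewer than on any uninjured or 48 h Sdc4-/- array, and the 3′ minus 5′ signal of Actb was 6.44 to 7.74. The part of this in the 12 h levels was not tested. Mean levels in uninjured, 12 h and 48 h Sdc4-/- cells were 3.27, 8.04 and 8.73 for Ppbp, 7.07, 11.96 and 11.04 for Ptgs2 and 4.61, 9.37 and 8.73 for Olr1. Those of Gpnmb were 4.05, 4.63 and 8.98, those of Ctsd 7.95, 8.73 and 11.28, those of Pdia6 6.62, 6.89 and 9.31 and those of Fcgr1 4.71, 3.77 and 8.43. The first 3 genes were near their 48 h level by 12 h, and the last 4 lay nearer to the uninjured level. Fmod, at 11.78, 3.49 and 2.73, and Cd209e, at 8.8, 2.43 and 2.37, were near background by 12 h, and Retnla, at 12.72, 10.03 and 5.99, lay between.

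Wild type cells offered a comparison with no shared array, but both contrasts came from the same fit. Each gene's estimate of spread was shared between them, so their calls were not independent. Of the 482 genes higher in Sdc4-/- cells 87 (18%, and 8.73% of the 996 higher in wild type cells) were also higher in wild type cells at 48 h, and 40 were lower there. Of the 471 lower genes 270 (57.3%, and 15.8% of the 1709 lower in wild type cells) were also lower, and 5 were higher. Of all genes, 5.47% were called higher and 9.39% lower in wild type cells. Shares among expressed genes were not computed, and the overlaps cannot be read as independent agreement. Changes at 48 h differed between genotypes (Sdc4-/- minus wild type) in 850 genes (4.67%), among them 149 of the 482 and 69 of the 471. Wild type arrays differed from each other in quality: hybridization controls averaged 12.09 ± 0.41 (SD, n = 3) at 48 h and 8.4 ± 0.764 (SD, n = 2) in uninjured wild type cells, and 5123 to 5564 probe sets read above 5 at 48 h against 7213 to 7620 in uninjured wild type cells. With the hybridization controls as a covariate 220 probe sets were called more positive and 23 more negative in Sdc4-/- cells, against 1315 and 527 without it, and with all 18 arrays fitted 117 and 84. Strain and genotype cannot be told apart.

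Fmod fell by 9.05 in Sdc4-/- cells and by 9 in wild type cells, a difference of -0.04 ± 0.763 (SE) that did not pass. Gpnmb rose by 4.93 in Sdc4-/- cells and changed by 0.78 ± 0.36 (SE) in wild type cells, and the difference of 4.14 ± 0.483 (SE, adjusted p = 0.000635) passed. Zfp36 and Igf2r rose in Sdc4-/- cells and fell by 1.63 and 1.58 in wild type cells, with differences of 3.06 and 3.94. Apoe, the lipid-carrying apolipoprotein E of macrophages, read 4.9, 4.65 and 4.44 at 48 h and 9.81, 10.27 and 9 in uninjured Sdc4-/- cells, a change of -5.03 ± 0.539 (SE), and changed by 1.87 ± 0.602 (SE) in wild type cells, so that the difference was -6.9 ± 0.808 (SE, adjusted p = 0.000635). Gpnmb, Zfp36 and Apoe kept these calls with the hybridization controls as a covariate, and Igf2r did not (adjusted p = 0.352). Arg1, Msr1 and Il10 rose in both genotypes and their differences did not pass (adjusted p = 0.298, 0.156 and 0.876).

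**Figure D5:**
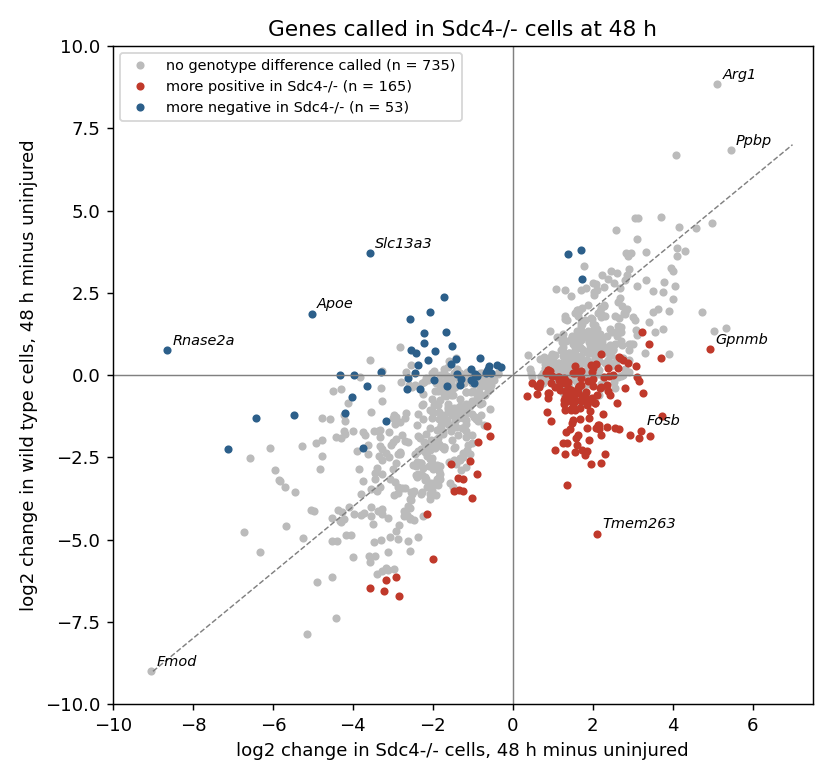
Log2 change at 48 h in wild type cells (vertical axis) against that in Sdc4-/- cells (horizontal axis) for the 953 genes called in Sdc4-/- cells, red and blue where the genotype difference was called. The dashed line marks equal changes; 165 genes were more positive and 53 more negative in Sdc4-/- cells, and 735 showed no called difference.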

How the data were processed

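Syndecan-3-sorted cells were measured on 18 Affymetrix mouse genome arrays. The authors deposited log2 values of 45101 probe sets, made with GCOS and GCRMA, whose versions are not given in the sources used here. The deposited table keeps no detection calls. Precision is limited by how few arrays each group holds. A linear model with a mean for each of the 6 groups was fitted to 17 arrays in limma 3.58.1 (R 4.3.3), with Benjamini-Hochberg adjustment over all probe sets, and a gene counted as called below an adjusted p of 0.05. Uninjured wild type replicate 3 was left out. The methods exclude an array of that group, taken to be replicate 3 because the study's clustering tree shows the other two, and a fit of all 18 arrays was an alternative. Probe sets were named from the platform annotation (34958 with 1 symbol, 932 with several, 9211 with none), and each of 18194 genes was read from its probe set with the highest mean. Of 1274 genes in 55 lists 1173 were measured. The members and lists were chosen with earlier results of these data known.

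Named were the 15 largest rises and 15 largest falls without overlap, up to 5 called members per list by adjusted p (the 2 brightest where none was called), the 10 largest genotype differences each way, and Sdc4, Sdc3, Pax7, Myod1, Myog, Met and Cd34. Further members of lists, named so that each count can be read, and Lyve1, Folr2, Timd4 and Vsig4 were chosen after their values were seen. Alternatives were other sets of arrays, variance settings, array weights, normalizations, a filter at a mean of 4, a hybridization-control covariate, a replicate block, leaving out each array, and the study's threshold of 2-fold and p of 0.01. For single genes the alternatives kept the same probe set. Further probe sets that were not called changed by -0.27 for Atp8b4, 0.01 for Ell2, 0.22 for Cct8 and 0.04 for Dcn. For Fmod 5 of 6 probe sets were called lower, and for Gpnmb and Edem1 2 of 2 were called higher.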

Additional observations from a re-analysis of the deposited data

Results flagged for a closer look

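A difference between genotypes in the 48 h change, Sdc4-/- minus wild type, was called by limma for 37 named genes and for 1 Sdc4 probe set. Of the 37 genes 23 were more positive and 14 more negative in Sdc4-/- cells. All 37 kept their sign with the hybridization controls as a covariate, where 7 remained called, and with all 18 arrays, where 11 remained called. Beyond that covariate fit, the part of the hybridization controls in these differences was not tested, and strain and genotype cannot be told apart.

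Among the more positive, the differences (log2) were 6.91 for Tmem263, 6.80 for Armcx2, 6.22 for Aplnr, 6.06 for Prss23, 6.06 for S1pr3, 5.65 for Lgalsl and 5.62 for Ccn1. The Ccn1 value comes from a probe set that changed by -1 in Sdc4-/- cells and was not called. Of the 4 Ccn1 probe sets, 2 were called lower in Sdc4-/- cells, and the changes ran from -4.51 to 0. Tent5c differed by 5.60, Fnbp1l by 5.53, Scd2 by 5.42, Fosb by 4.91, Nip7 by 4.15, Gpnmb by 4.14, Igf2r by 3.94, Lims1 by 3.07, Zfp36 by 3.06, Ndufs1 by 2.64, Psmc5 by 1.55 and Birc5 by 0.74. The satellite cell markers Cd34, Pax7, Chodl and Myf5 differed by 3.94, 2.35, 1.97 and 1.31. All were at or near background in both Sdc4-/- groups, Cd34 at means of 3.26 at 48 h and 2.82 in uninjured cells. A fall could thus hardly show there, and the differences come from falls of 3.5, 2.41, 1.9 and 1.38 in wild type cells. Pax7 changed by -0.07 at background in Sdc4-/- cells and by -2.41 in wild type cells.

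Among the more negative, the differences were -0.86 for Dpp4, -1.77 for H2-Ob, -2.52 for Cd2, -4.09 for Il6ra, -4.20 for Wfdc21, -4.27 for Nucb2 and -4.28 for Cd209g. Ear3 differed by -4.34, Npl by -4.72, Mgl2 by -4.88, Cd209e by -5.14, Apoe by -6.90, Slc13a3 by -7.27 and Rnase2a by -9.39. The Sdc4 probe set that was at background in both Sdc4-/- groups differed by -3.55.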

How the results depend on the processing

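Of 145 named genes called at 48 h in Sdc4-/- cells, 59 kept their call in every alternative and 90 on leaving out any array, and none of the 145 changed sign in the alternatives run; genes that did not pass at 48 h could change sign between alternatives. Counts of probe sets called higher (983) were 515 after quantile scaling and 1493 after shifting arrays to a common 75th percentile, and ranged over 651 to 903 on leaving out 1 array. Counts called lower (1043) were 689 after quantile scaling and 485 above a mean filter of 4, and ranged over 730 to 1285. In wild type cells the 2415 higher became 251 with all 18 arrays, 4571 without variance moderation, 3716 with array weights, 1094 after quantile scaling, 17179 after the percentile shift, 586 above a mean filter of 4, 105 with the hybridization covariate, 5079 without the 3 wild type 12 h arrays (chosen after seeing the data) and 925 at the study's threshold, and 731 to 2371 on leaving out 1 array. The 3209 lower became 168 with all 18 arrays, 1543 above a mean filter of 4 and 739 with the covariate, and 1917 to 2960 on leaving out 1 array. Genotype differences more positive in Sdc4-/- (1315) became 117 with all 18 arrays, 567 above a mean filter of 4, 220 with the covariate and 2002 at the study's threshold (916 to 1697 on leaving out 1 array). Those more negative (527) became 84 with all 18 arrays, 1207 with only the groups compared, 340 with trend and robust moderation, 1508 without moderation, 1124 with array weights, 212 after quantile scaling, 1441 after the percentile shift, 113 above a mean filter of 4, 23 with the covariate and 1267 without the 3 wild type 12 h arrays (209 to 658 on leaving out 1 array). The cause was not tested. Replicate numbers did not pair arrays: deviations from the group means of same-numbered arrays correlated at 0.0157, -0.0908 and -0.0467 over 9962 probe sets. With replicate number as a block, 910 probe sets were higher and 979 lower in Sdc4-/- cells, 1823 higher and 2844 lower in wild type cells, and 1023 more positive and 343 more negative between genotypes.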
